A study of Saccharomyces cerevisiae with 2 samples.

Results

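The mitochondrial protein import machinery comprises the protein complexes that carry precursors made in the cytosol across or into the mitochondrial membranes. The genes described here are 31 named subunits and chaperones of the translocases, taken by gene symbol from a table of 5734 coding sequences. All 31 were found, and all 31 passed the minimum of 5 RPKM (uniquely mapped reads scaled to coding length and library total), taken as the mean of both libraries. Transcripts of the budding yeast Saccharomyces cerevisiae were sequenced from the strain 2-10515, labelled wild type, and from Y518, labelled a mutant, which the series title describes as rich in glutathione. The mutated gene, the relation between the strains and their ploidy are not given in the labels. Both strains grew from a single colony in an 18 h seed culture at 30 °C and 180 rpm, and the main culture of 50 ml was harvested after 24 h of fermentation under the same conditions. Each strain is represented by 1 library, so no difference below has a replicate check and none was tested. The question is how the transcriptome of a strain rich in glutathione departs from that of a strain labelled wild type.

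Nearly all mitochondrial proteins are encoded in the nucleus and enter through the TOM complex of the outer membrane. From there, proteins with a cleavable presequence pass through the TIM23 complex of the inner membrane and are pulled into the matrix by an ATP-driven motor. Metabolite carriers are escorted by small Tim chaperones to the TIM22 complex, barrel proteins are inserted by the SAM complex, and small cysteine-rich proteins are trapped in the intermembrane space by the Mia40 and Erv1 disulfide relay. In yeast, import is needed for growth on any carbon source, and the larger part of these genes is essential.

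The transcripts of the entry gate and of the disulfide relay were lower in Y518, whereas those of the presequence translocase and its motor were mixed. All 8 TOM genes had fewer RPKM in Y518, with a summed level of 2032 RPKM in the wild type against 1194 in Y518, a 1.70-fold difference. The 4 TIM23 genes together had 381 and 452 RPKM, of which TIM21 alone made up 64 and 123, and TIM50 was lower in Y518. The 5 motor genes had 524 and 528 RPKM, with TIM44 and PAM18 lower and the other 3 higher. These sums leave out SSC1, the Hsp70 gene of the motor, which is not a member. SSC1 had 1193 RPKM in the wild type against 546 in Y518. Both relay genes were lower, with a sum of 479 RPKM in the wild type against 292 in Y518. The small Tim chaperones had 686 and 501 RPKM, the SAM complex 182 and 168 RPKM, and the TIM22 complex 148 and 132 RPKM.

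**Figure D1:**
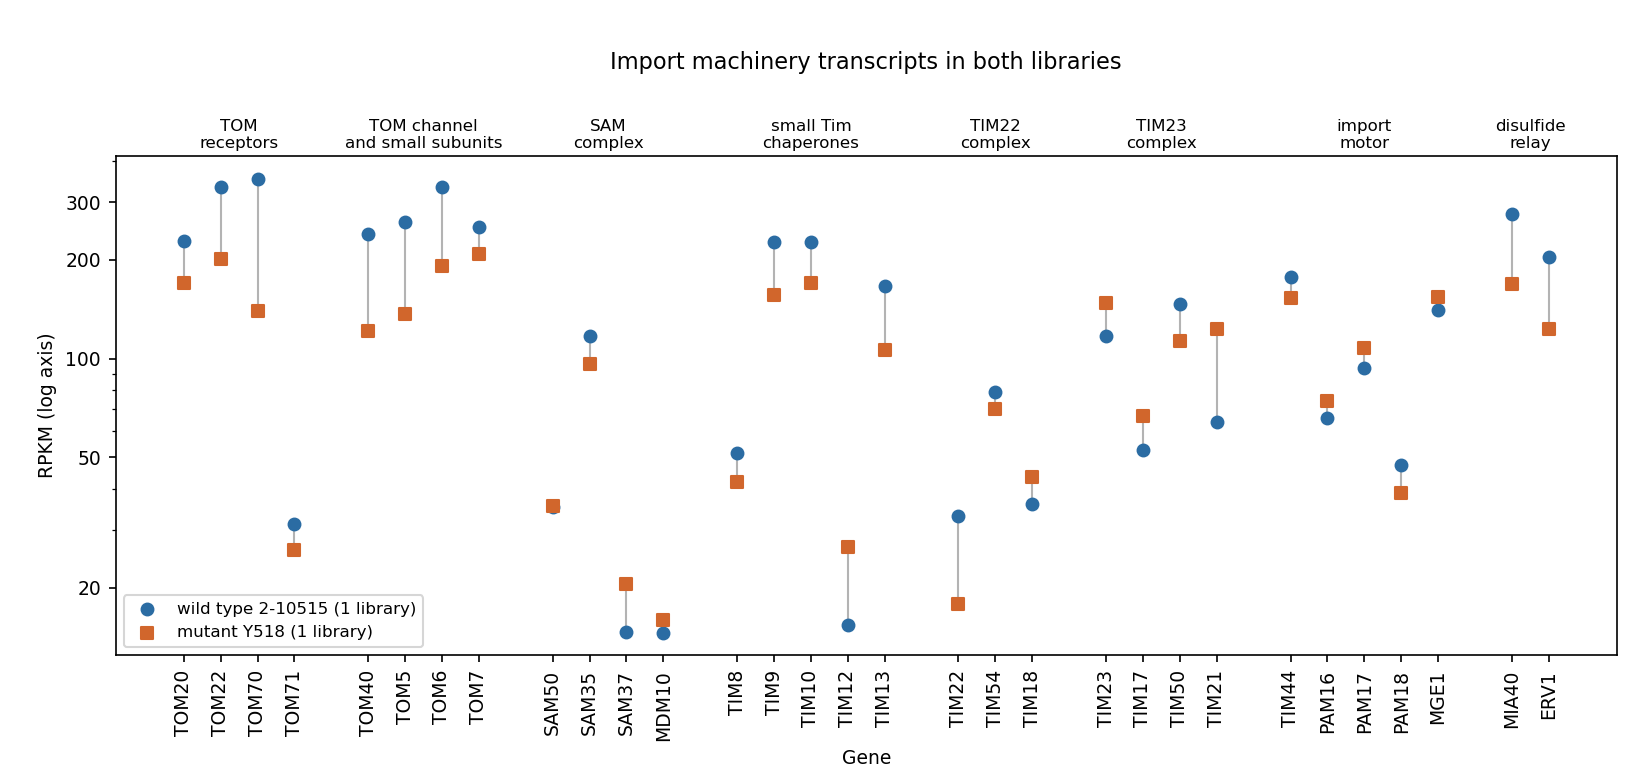
Levels of the 31 import genes in RPKM (log axis) by gene, grouped by complex, with 1 point for the wild-type library (circles) and 1 for the Y518 library (squares). The wild-type point is the upper one for all 8 TOM genes and both relay genes, while TIM23, TIM17 and TIM21 have the Y518 point on top.

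Differences were moderate for nearly every member. On a log2 scale, with 1 RPKM added to each level and Y518 divided by the wild type, 1 of 31 genes was at least 2-fold lower in Y518 and 0 were at least 2-fold higher. Over all 5415 genes at or above the RPKM minimum the corresponding shares were 8.88% lower and 19.9% higher. At a smaller difference of 1.5-fold, 9 members were lower and 2 higher, against 16.4% lower and 35.3% higher among all genes. The members' median log2 ratio was -0.28, and that of all genes was 0.27. A negative ratio was found for 20 of the 31 members and for 37.0% of all genes. By counting error alone, 16 members had a ratio whose 95% interval lay wholly below 1 and 4 had one wholly above 1, against 26.3% and 49.8% of all genes.

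The median of 0.27 over all genes means that a typical gene had more RPKM in Y518, an offset that depends on how the libraries are scaled. Relative to that median, 6 members were at least 2-fold lower (TOM70, TOM40, TOM5, TOM6, TIM22 and ERV1) and 0 were 2-fold higher, against 13.6% lower and 13.2% higher among all genes. ERV1 lay exactly at the limit. Sequencing depth was close in both strains, at 4.71 M mapped reads in the wild type and 4.32 M in Y518. Members had between 24 and 3085 reads in the wild type and between 38 and 1115 in Y518, spread over 87.9% to 99.95% and 91.4% to 99.95% of the coding length. No member had a near-identical copy among the coding sequences of the listed genes found in the reference annotation. None overlapped another annotated gene. In a whole culture, fewer cells in a given state and less RNA per cell cannot be told apart.

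**Figure D2:**
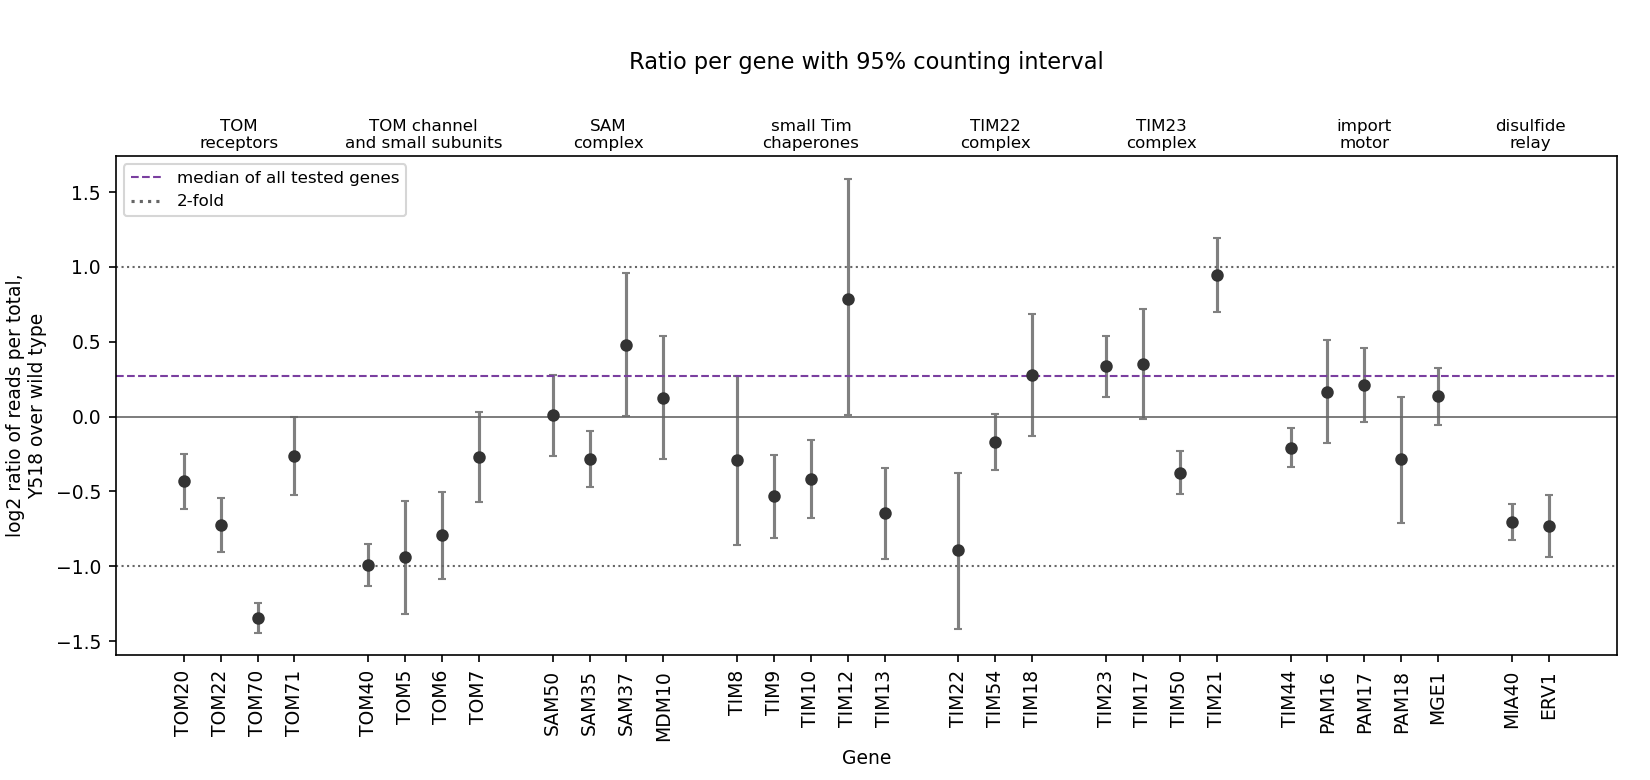
Ratio of reads per library total, Y518 over wild type, on a log2 axis for each import gene. Bars are exact 95% counting intervals, the dotted lines mark 2-fold, and the dashed line marks the median of all tested genes at 0.27. Of the 31 intervals, 16 lie wholly below 0, 4 wholly above it and 11 hold it. Over all tested genes 26.3% lie wholly below and 49.8% wholly above. TOM70 is the member whose interval lies wholly beyond 2-fold.

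The receptors of the TOM complex recognise precursors at the mitochondrial surface. TOM70 (YNL121C), encoding the receptor for carriers and other precursors with internal signals, had 3085 reads and 353 RPKM in the wild type, and 1115 reads and 139 RPKM in Y518. It was the most abundant of the 31 transcripts in the wild type, at rank 411 of all genes, and stood at rank 1265 in Y518. Its ratio was 2.54-fold lower in Y518 (95% counting interval 2.37 to 2.72), and 5.30% of all tested genes had a lower ratio. The intervals given here and below cover counting error only, not the spread between cultures.

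The paralogue of TOM70 had a ratio closer to 1. TOM71 (YHR117W) had 283 and 216 reads, or 31.3 RPKM in the wild type against 26.1 in Y518, 1.20-fold lower with an interval that began just above 1 and reached 1.44. The coding sequences of this couple match at 63.7% identity over 620 aligned bases, too far apart for their reads to be confused. TOM20 (YGR082W), the presequence receptor, had 595 and 404 reads, at 229 and 170 RPKM, and was 1.35-fold lower (1.19 to 1.54). TOM22 (YNL131W), the central receptor and organiser of the complex, had 719 and 399 reads, at 333 and 201 RPKM, and was 1.65-fold lower (1.46 to 1.87). The order of receptor levels in the wild type was TOM70, TOM22, TOM20 and TOM71. In Y518 it was TOM22, TOM20, TOM70 and TOM71.

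TOM40 (YMR203W), encoding the barrel that forms the import channel, came next to TOM70 in size of difference. It had 1317 reads and 240 RPKM in the wild type against 608 reads and 121 RPKM in Y518, 1.99-fold lower (1.80 to 2.19), which put it just inside the 2-fold limit. TOM5 (YPR133W-A), a small subunit that hands precursors to the channel, had 188 and 90 reads, at 261 and 136 RPKM, and was 1.92-fold lower (1.48 to 2.49). TOM6 (YOR045W), which stabilises the complex, had 291 and 154 reads, at 332 and 192 RPKM, and was 1.73-fold lower (1.42 to 2.12). TOM7 (YNL070W), the small subunit that favours disassembly, differed least of these, with 217 and 165 reads, at 252 and 209 RPKM. The ratio of wild type to Y518 was 1.21 for TOM7, and its interval of 0.98 to 1.49 held 1. TOM7 was the most abundant of the 31 transcripts in Y518. The coding sequences of the 3 small subunits are 153 to 186 bases long, so few reads stand behind their values.

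The SAM complex of the outer membrane showed small differences, and for SAM37 and MDM10 these rest on low counts. SAM50 (YNL026W), the barrel that inserts other barrels, had 242 and 223 reads and nearly the same level in both libraries, 35.3 and 35.5 RPKM. SAM35 (YHR083W), which binds the signal of barrel precursors, had 545 and 410 reads, at 117 and 95.9 RPKM, and was 1.22-fold lower in Y518 (1.07 to 1.39). SAM37 (YMR060C), a peripheral subunit, had 68 and 87 reads, at 14.7 and 20.5 RPKM. It was 1.40-fold higher in Y518, with an interval that began just above 1 and reached 1.95. MDM10 (YAL010C), a barrel protein shared with the tether between mitochondria and the endoplasmic reticulum, had 102 reads in each library, at 14.6 and 15.9 RPKM. TOM40, itself a client of this complex, was thus lower in Y518 while SAM50 was level.

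The small Tim chaperones shield hydrophobic precursors in the water-filled intermembrane space, and their fold is held by a doubled motif of cysteines spaced by 3 residues. These are also clients of the Mia40 relay, which oxidises those cysteines during import. The coding stretch that spans the motif is shown for all 5 genes, since it is the feature that ties the family to the relay genes described below. It is given 5′ to 3′ from the RefSeq R64 reference, with the 4 cysteine codons of the motif in capitals:
TIM8: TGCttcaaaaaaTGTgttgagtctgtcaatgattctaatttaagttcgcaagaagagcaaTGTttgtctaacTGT
TIM9: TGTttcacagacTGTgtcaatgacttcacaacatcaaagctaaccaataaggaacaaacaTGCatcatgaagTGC
TIM10: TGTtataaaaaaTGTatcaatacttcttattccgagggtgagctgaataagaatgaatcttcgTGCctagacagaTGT
TIM12: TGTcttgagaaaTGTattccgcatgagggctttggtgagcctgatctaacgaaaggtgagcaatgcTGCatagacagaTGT
TIM13: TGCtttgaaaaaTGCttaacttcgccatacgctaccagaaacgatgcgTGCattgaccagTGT
The spacing between the inner cysteine codons is 11 codons in TIM13, 15 in TIM8 and TIM9, 16 in TIM10 and 17 in TIM12. TIM12 has 6 cysteine codons in all, the others 4.

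TIM9 and TIM10 encode the partners of the essential soluble chaperone complex. TIM9 (YEL020W-A) had 281 and 178 reads, at 226 RPKM in the wild type against 156 in Y518, 1.45-fold lower (1.20 to 1.76). TIM10 (YHR005C-A) had 301 and 207 reads, at 227 and 170 RPKM, 1.33-fold lower (1.11 to 1.60). The partners had almost equal levels in both strains. TIM13 (YGR181W), of the second soluble complex, had 249 and 146 reads, at 166 and 106 RPKM, 1.56-fold lower (1.27 to 1.93). Its partner TIM8 (YJR135W-A) had 64 and 48 reads, at 51.5 and 42.1 RPKM. For TIM8 the ratio of wild type to Y518 was 1.22, and its interval of 0.83 to 1.82 held 1. TIM12 (YBR091C), the membrane-bound family member that docks the chaperones on the TIM22 complex, went the other way on few reads. It had 24 in the wild type and 38 in Y518, or 15.4 and 26.7 RPKM, 1.73-fold higher in Y518 (1.01 to 3.01).

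The TIM22 complex inserts metabolite carriers into the inner membrane. TIM22 (YDL217C), its channel, had 97 and 48 reads, at 33.0 RPKM in the wild type against 17.8 in Y518, 1.85-fold lower (1.30 to 2.68). TIM54 (YJL054W), a subunit exposed to the intermembrane space, had 534 and 435 reads, at 78.9 and 70.1 RPKM. Its ratio of wild type to Y518 was 1.13, and the interval ran from 0.99 to 1.28. TIM18 (YOR297C), a subunit related to a membrane anchor of succinate dehydrogenase, had 98 and 109 reads, at 35.9 and 43.6 RPKM, 1.21-fold higher in Y518 with an interval of 0.91 to 1.61. The channel transcript therefore differed from those of its partners in this complex.

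The TIM23 complex takes over precursors with a presequence, and its genes had the highest median log2 ratio of the 8 groups, at 0.34. TIM23 (YNR017W) and TIM17 (YJL143W) encode the paired membrane proteins of the translocation path. TIM23 had 370 and 428 reads, at 117 RPKM in the wild type against 148 in Y518, 1.26-fold higher (1.10 to 1.45). TIM17 had 118 and 138 reads, at 52.5 and 67.0 RPKM, 1.28-fold higher with an interval of 0.99 to 1.64. TIM21 (YGR033C), which couples the complex to the TOM complex and the respiratory chain, had 217 and 383 reads, at 64 and 123 RPKM. It was 1.92-fold higher in Y518 (1.63 to 2.28), the highest ratio of all 31 members and just inside the 2-fold limit, and 78.0% of all tested genes had a lower one. TIM50 (YPL063W), the receptor that keeps the channel closed at rest, had 991 and 701 reads, at 147 and 113 RPKM, and was 1.30-fold lower (1.18 to 1.43). Relative to the all-gene median, TIM23 and TIM17 were near 0, with log2 ratios of 0.06 and 0.07.

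The import motor is built around the matrix Hsp70. TIM44 (YIL022W), which anchors the motor at the channel, had 1079 and 856 reads, at 177 RPKM in the wild type against 153 in Y518, 1.16-fold lower (1.06 to 1.27). PAM18 (YLR008C), the J protein that stimulates the Hsp70, had 113 and 85 reads, at 47.3 and 38.8 RPKM. Its ratio of wild type to Y518 was 1.22, and the interval of 0.91 to 1.63 held 1. PAM16 (YJL104W), the J-like partner that restrains PAM18, had 140 and 144 reads, at 66.1 and 74.1 RPKM. PAM17 (YKR065C), which helps organise the motor, had 261 and 277 reads, at 93.3 and 108 RPKM. MGE1 (YOR232W), the nucleotide exchange factor, had 454 and 457 reads, at 140 and 154 RPKM. The last 3 were 1.12-fold, 1.16-fold and 1.10-fold higher in Y518, and each interval held 1. All 5 motor genes lay below the median ratio of all genes, with log2 ratios between -0.28 and 0.21.

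The disulfide relay consists of the oxidoreductase Mia40 and the sulfhydryl oxidase Erv1, which reoxidises it. MIA40 (YKL195W) had 1570 reads and 275 RPKM in the wild type, and 884 reads and 169 RPKM in Y518, 1.63-fold lower (1.5 to 1.77). ERV1 (YGR029W) had 547 and 302 reads, at 204 and 123 RPKM, 1.66-fold lower (1.44 to 1.92). Both genes were lower in Y518 by nearly the same factor.

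Ratios of partner genes within one library do not depend on how the libraries are scaled, so they were compared between strains for 17 couples chosen after the values were seen. TOM70 had 11.3 times the RPKM of TOM71 in the wild type (9.99 to 12.8) and 5.35 times in Y518 (4.62 to 6.21), a change by a factor of 0.47 (exact interval 0.39 to 0.58). The outer channel gene TOM40 had 2.05 times the RPKM of the inner channel gene TIM23 in the wild type (1.82 to 2.30) and 0.82 times in Y518 (0.72 to 0.93). This reversal of order, a factor of 0.40 (0.34 to 0.47), was the farthest from 1 among the 17 couples. TIM18 had 1.09 times the RPKM of TIM22 in the wild type and 2.45 times in Y518, a factor of 2.25 (1.41 to 3.58). TIM50 went from 1.25 to 0.77 times the RPKM of TIM23, a factor of 0.61 (0.51 to 0.73), and TIM21 from 0.545 to 0.831 times, a factor of 1.53 (1.22 to 1.91).

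Other couples kept their proportion within counting error. TIM9 had 0.997 times the RPKM of TIM10 in the wild type and 0.92 times in Y518, a factor of 0.92 (0.71 to 1.20). TIM23 had 2.24 and 2.21 times the RPKM of TIM17, a factor of 0.99 (0.74 to 1.32). MIA40 had 1.35 and 1.38 times the RPKM of ERV1, a factor of 1.02 (0.86 to 1.21). For 6 of the 17 couples the interval of the change held 1, and for 11 it did not. Some couples share a gene, and no such count was made for other pairs of genes. For single genes, 26.3% of all tested genes had an interval wholly below 1 and 49.8% had one wholly above 1. Single-gene ratios depend on the scaling, so these shares are not a background for the count of couples. The counting intervals do not show that the proportions are equal, and the spread between cultures is not in them.

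**Figure D3:**
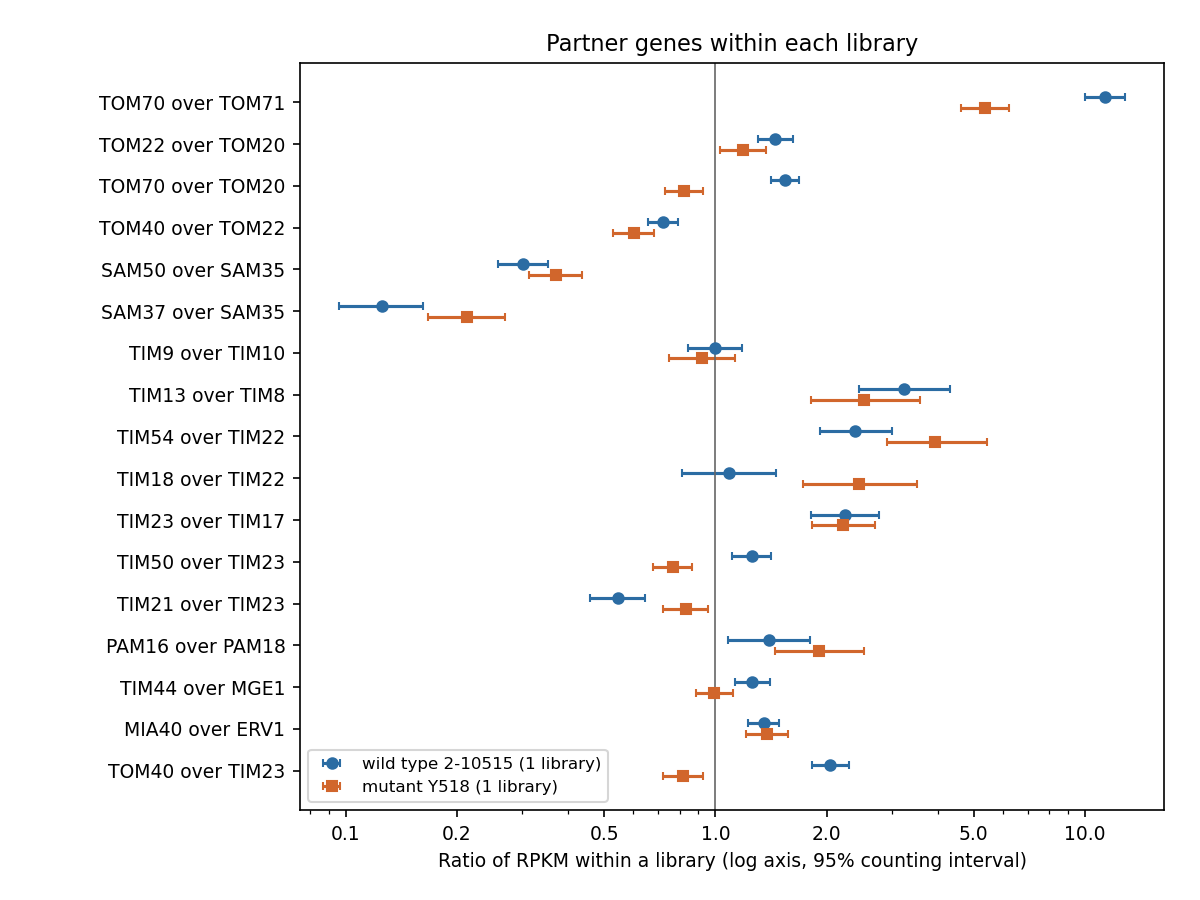
Ratio of RPKM of partner genes within the wild-type library (circles) and within the Y518 library (squares) on a log axis, with exact 95% counting intervals as bars. TIM9 over TIM10, TIM23 over TIM17 and MIA40 over ERV1 nearly coincide, whereas TOM40 over TIM23 lies at 2.05 in the wild type and at 0.82 in Y518.

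The members covered a 24.2-fold range of levels in the wild type and a 13.1-fold range in Y518. Of 18 members with a mean of at least 100 RPKM, 15 had a negative log2 ratio, against 5 of 13 members below that level. Over all tested genes 37.0% had a negative ratio, a share that was not split by level. Across the 31 genes the log2 mean level and the log2 ratio had a Pearson correlation of -0.54 and a Spearman correlation of -0.62. Across all 5415 tested genes the values were -0.06 and -0.06. These correlations are descriptions over genes that share both libraries, and the level enters both axes. Genes essential for growth and those that are not had like medians: -0.28 for 17 essential genes and -0.27 for 13 others, with TIM54 left out of the division.

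A sequence element after the stop codon was common in the group. Puf3 is a yeast RNA-binding protein that recognises TGTANATA in the 3′ untranslated part of many transcripts for mitochondrial proteins. Within 250 bases after the stop codon, on the coding strand of the R64 reference, this element was present in 22 of 31 members (71.0%) and in 15.8% of the 5685 genes matched to the reference. It was found in 53 of 54 mitochondrial ribosomal protein genes, but in 8 of 37 genes of the respiratory chain and ATP synthase. It was found in all 5 small Tim genes, all 4 genes of the TOM channel and small subunits, all 3 TIM22 genes, both relay genes and 4 of 5 motor genes, and in none of the 4 SAM genes. TOM22, TOM71, TIM50, TIM21 and PAM16 had no match either. Of these, TOM22 was 1.65-fold lower in Y518 and TIM21 1.92-fold higher. The first site after the stop codon is printed with the element in capitals, 5′ to 3′, to show its setting in the members with the element that differed by at least 1.5-fold, TIM12 being the one higher in Y518:
TOM70: ctctttcattcTGTAAATAattagcagtgc
TOM40: ataaataattaTGTATATAcgtgggcacca
TOM5: agagaaagacgTGTAAATAttttttaaaaa
TIM22: tgttttatattTGTAAATAtcacctatctt
TOM6: tttcacttaccTGTATATAtattggttttt
MIA40: aggatgatacaTGTAAATAcagtaatatta
ERV1: acagattctcgTGTATATAacactccaatc
TIM13: gtactcgtactTGTATATAagattcaaagg
TIM12: cTGTAAATAtgaggactgtctgtgctgttt
These elements begin 194, 147, 127, 37, 40, 56, 64, 45 and 2 bases after the stop codon, in the order printed. The strains studied may differ from the reference in these bases, the ends of the transcripts are not known here, and the window can reach into the next gene.

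Members with the element had a median log2 ratio of -0.35, and 16 of 22 were negative. Members without it had a median of 0.01, and 4 of 9 were negative. These 9 include all 4 SAM genes, so element and complex overlap here. Over all tested genes the medians were -0.02 for 878 genes with the element and 0.32 for 4517 without it. Of these, 449 of 878 and 1550 of 4517 had a negative ratio. PUF3 itself (YLL013C), looked up after the element was counted, had 1576 and 657 reads, at 127 RPKM in the wild type against 57.6 in Y518, a ratio of 0.455 (0.414 to 0.498). Whether Puf3 has a part in these differences was not tested. Promoter elements were counted too. In the window from 250 bases before to 50 after the start codon, on either strand, CCAAT, the core of the Hap complex site, was present in 13 members (41.9%) and in 43.8% of all genes. The same element was present in 32 of 37 respiratory genes. Members with CCAAT had a median log2 ratio of -0.41 and members without it -0.10. AGGGG, the stress response element, was found in 12.9% of members and 21.8% of all genes, GATGAG in 12.9% and 19.7%, and AAAAATTTT in 3.23% and 7.26%. Members with and without AGGGG had medians of -0.35 and -0.27. For GATGAG the order was the other way, at -0.14 and -0.28. GGTGGCAAA, the proteasome gene element, was found in 0 members and in 1.25% of all genes.

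**Figure D4:**
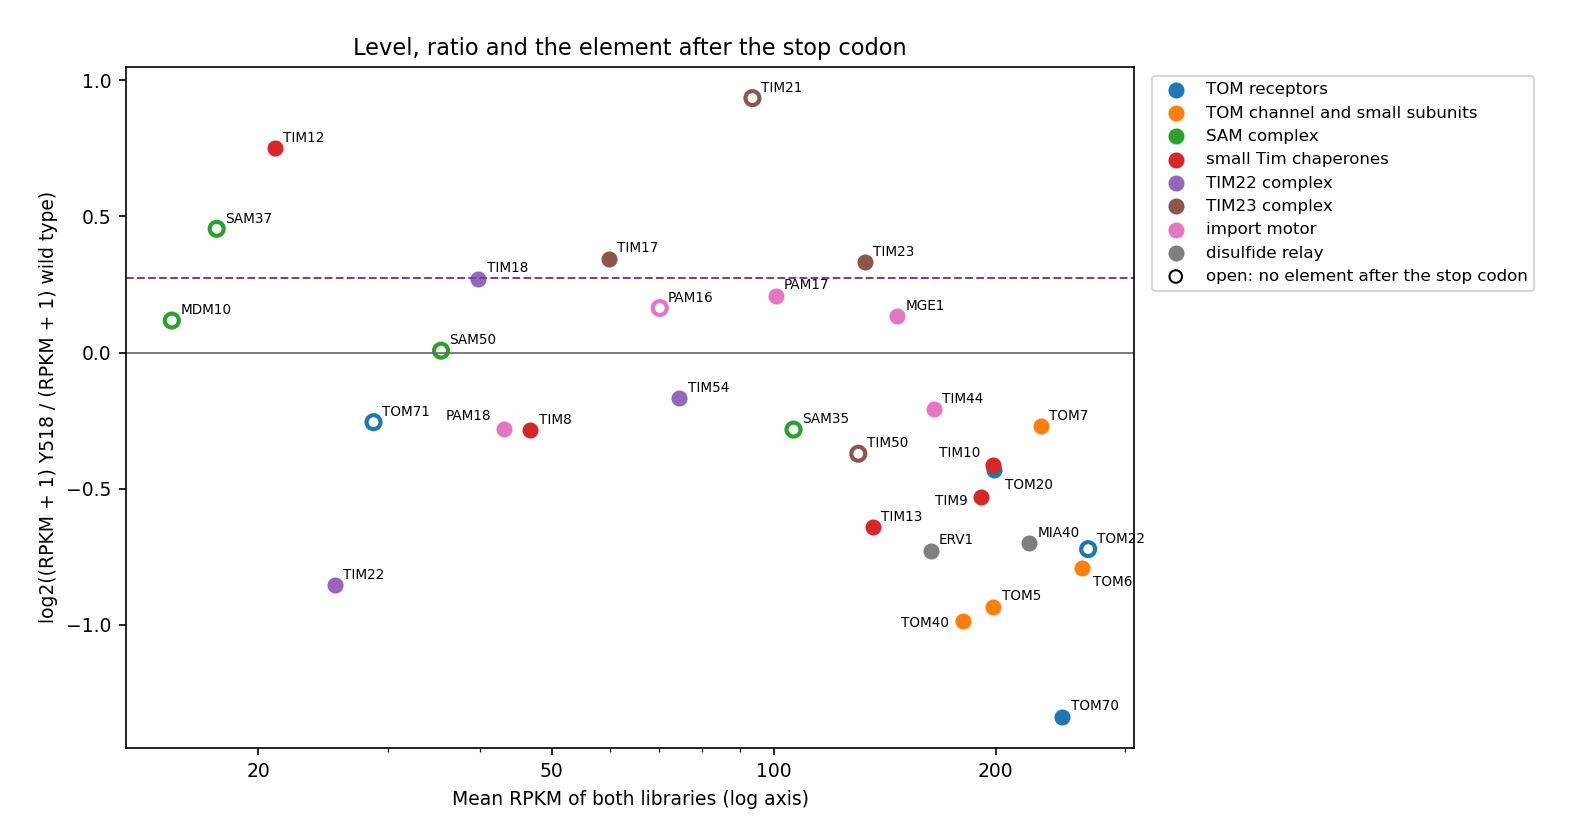
Mean RPKM of both libraries (log axis) against the log2 ratio of Y518 to the wild type (1 RPKM added to each) for the 31 members, coloured by complex. Filled points carry the TGTANATA element after the stop codon and open points do not, and the dashed line marks the median of all tested genes at 0.27. Members of at least 100 RPKM lie mostly below 0, and the open points include all 4 SAM genes.

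Genes that act next to the translocases were lower in Y518 more often than higher. The shares over all tested genes were 8.88% at least 2-fold lower and 19.9% at least 2-fold higher. Of 10 processing peptidase genes 3 were at least 2-fold lower and 0 higher, with a median log2 ratio of -0.57. SOM1, a subunit of the inner membrane peptidase, OCT1, the intermediate peptidase, and the rhomboid protease gene PCP1 were 2.18-fold, 2.18-fold and 2.05-fold lower. MAS1 and MAS2, encoding the matrix processing peptidase that removes presequences, were 1.36-fold (1.20 to 1.54) and 1.65-fold lower (1.41 to 1.92). Of 10 tested matrix chaperones and proteases 2 were lower and 1 higher. SSC1, the Hsp70 at the heart of the motor, had 1193 RPKM in the wild type against 546 in Y518, 2.19-fold lower (2.11 to 2.26), unlike the 5 motor partners above. HSP60, the chaperonin, was 2.57-fold lower (2.45 to 2.69), and ECM10, the minor paralogue of SSC1, was 2.56-fold higher on 81 and 190 reads (1.96 to 3.36).

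Insertion factors and import clients followed, to be read beside the same shares of 8.88% lower and 19.9% higher over all tested genes. Of 12 other insertion and quality control factors 5 were at least 2-fold lower and 0 higher, among them MBA1, a ribosome receptor of the inner membrane, at 3.70-fold, the protease gene YME1 at 3.20-fold and PNT1 at 2.81-fold. Of 6 porin and contact site genes 1 was lower, MDM34, a subunit of the tether that holds MDM10, at 3.88-fold, while MMM1 and GEM1 were 1.71-fold and 1.60-fold lower. Of 27 tested inner membrane carriers, clients of the TIM22 route, 5 were lower and 4 higher, with a median of -0.52. ODC1, the oxodicarboxylate carrier, GGC1, the GTP/GDP carrier, and MIR1, the phosphate carrier, were 6.09-fold, 5.38-fold and 3.33-fold lower, and PET9, the main ADP/ATP carrier, was 1.71-fold lower (1.64 to 1.78). Of 12 clients of the disulfide relay 4 were lower and 0 higher, including the copper chaperone gene COX17 and its relatives COX19 and CMC2 at 2.26-fold, 2.10-fold and 2.09-fold.

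The respiratory chain and ATP synthase, whose nuclear subunits are among the most abundant import clients, had 31 of 37 genes at least 2-fold lower and a median log2 ratio of -1.70. SDH3, which in yeast also serves in the TIM22 complex, NDI1 and SDH1 were 5.91-fold, 5.03-fold and 4.82-fold lower. The mitochondrial ribosomal proteins had 15 of 54 genes lower and 0 higher with a median of -0.53, and RSM23, MRPL7 and MRPL32 were 3.57-fold, 3.10-fold and 3.16-fold lower. The import machinery, with a median of -0.28, had a median between those of these sets and that of all genes. With 1 of 31 members, its share of genes 2-fold lower was under the 8.88% of all genes. Relative to the all-gene median 6 of 31 were lower, above the 13.6% of all genes, so the order of these shares depends on the scaling. With 1 library per strain these differences between lists were not tested.

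**Figure D5:**
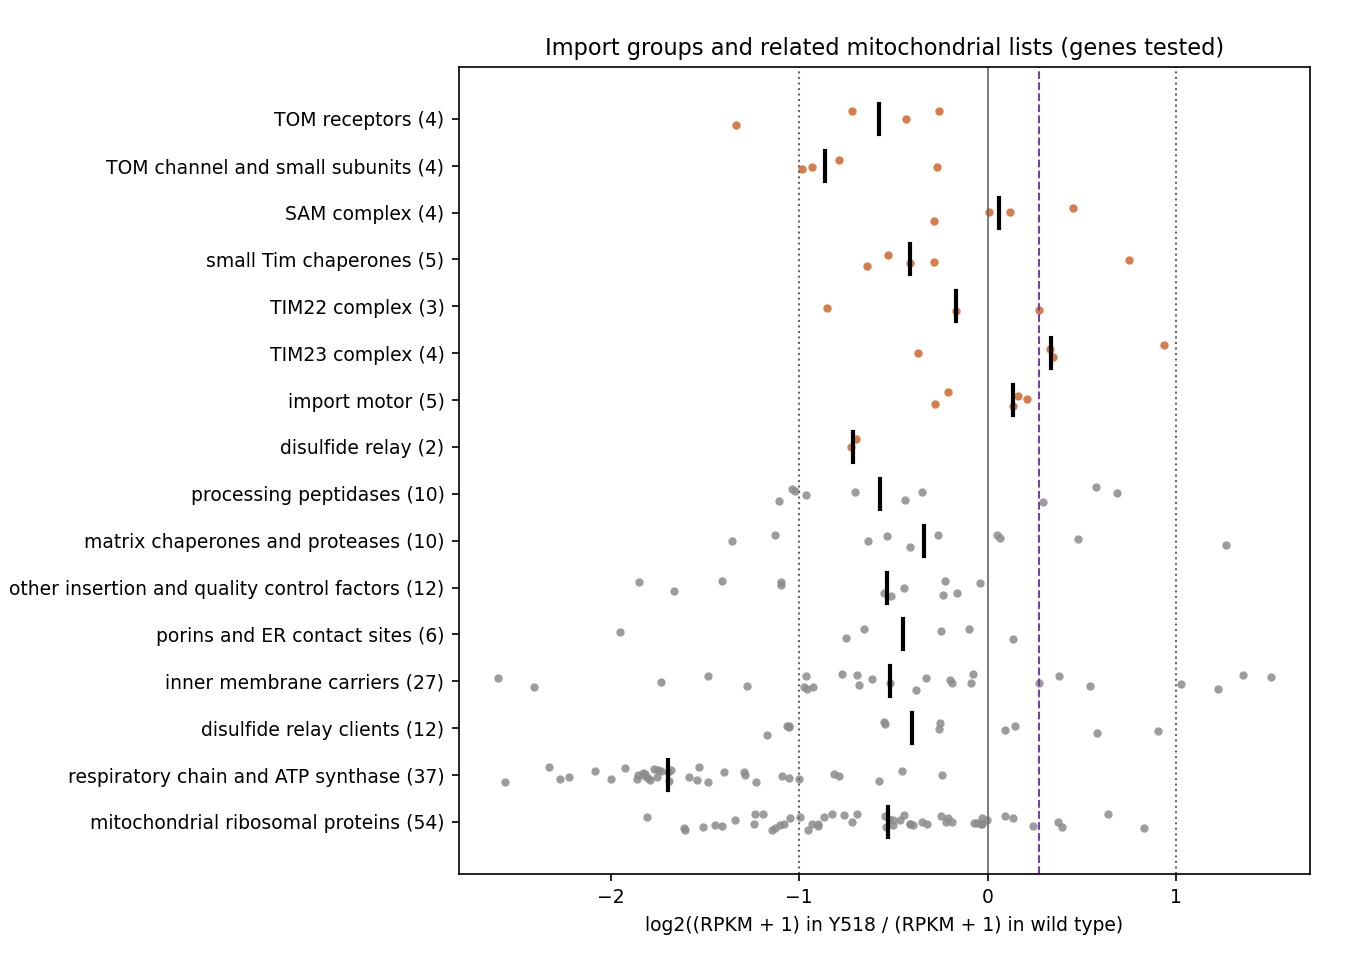
Log2 ratio of Y518 to the wild type (1 RPKM added to each) for the genes of the 8 import groups (upper rows) and the 8 related lists (lower rows), with 1 point per tested gene, spread vertically for legibility, and a black bar at each median. Dotted lines mark 2-fold and the dashed line the median of all tested genes at 0.27. The medians run from 0.34 for the TIM23 complex to -0.86 for the TOM channel and small subunits, and to -1.70 for the respiratory chain and ATP synthase.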

How the data were processed

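The authors deposited, per the file headers, a read count (reads mapped uniquely), a coverage percent and an RPKM for each gene in each library. Each deposited RPKM could be rebuilt from its count, length and library total (0 mismatches beyond a relative difference of 1e-06), and the tables of the single libraries held the same counts (0 mismatches). All 5734 listed lengths are multiples of 3 and are read as coding lengths. The aligner is not given in the sources used here, nor are the build and the use of strand. A dash was read as 0 reads. Columns of other samples numbered 0.

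Records were matched by versioned accession to the RefSeq R64 annotation of strain S288C: 5685 of 5734 matched, all with the listed length, the 31 members among them. Since no build is named with the deposited values, no coordinates are printed. Copies were searched with BLAST+ 2.17.0 (at least 95% identity over at least 100 nt) among coding sequences of the listed genes found in R64, not in the whole genome.

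Genes averaging 5 RPKM or more were compared by log2 of RPKM with a pseudocount of 1, which understates changes of low genes. Called means a 2-fold ratio. For single genes the printed folds divide reads scaled by library total, with no pseudocount added, and carry exact conditional binomial (Clopper-Pearson) 95% intervals, and changes of partner ratios have exact conditional odds ratio intervals (scipy 1.17.1). Intervals cover counting error only, and PCR duplicates are not independent molecules. The size rule and the interval were tested on simulated counts that held counting error only. Spread between cultures and PCR duplicates were not simulated. Alternative scalings used edgeR 4.0.16 and DESeq2 1.42.0 for their factors only. With 1 library per strain no p-value is given. The members and lists were chosen with earlier results of these data known. All members are named, with up to 3 genes of the largest absolute log2 ratio per related list and SSC1, HSP60, MAS1, MAS2 and PET9. PUF3 and the couples of partner genes were added after values were seen.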

Additional observations from a re-analysis of the deposited data

How the results depend on the processing

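The scaling of the libraries moved the members together. The count of members at least 2-fold lower, 1 as reported, was 6 when ratios were centred on the all-gene median, 5 with TMM scaling (without ERV1) and 7 with median-ratio size factors (with TOM22 added). Over all genes the same settings gave 737, 722 and 743 of 5415 lower. The share of members lower was thus under that of all genes as reported, and above it under each of these scalings. The members' median log2 ratio of -0.28 was -0.55, -0.54 and -0.56 under these scalings. A limit of 1.5-fold gave 9 lower and 2 higher members, and a limit of 3-fold gave 0 lower. The count of higher members was 0 under the other settings tried. A pseudocount of 0.1 or 5 RPKM, no filter, or a minimum of 20 RPKM, which left 29 members, changed neither count and left every member's ratio within its counting interval. Under centring 17 ratios left their interval, and 26 of 31 were negative instead of 20. TOM70, the one member called, was lower under all these settings except at 3-fold, where it was not called. No paired analysis was possible because each strain had 1 library, and no replicate could be left out. Precision is limited by counts for TIM12, TIM22, TIM8, SAM37, TOM5, PAM18 and TIM18, each with fewer than 100 reads in at least 1 library.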
